A study of Homo sapiens with 13 samples.

Results

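The comparison described here is the time course of EGF alone in MCF10A cells, split into its late and its early arrays. By rule, the 6 arrays of cells given EGF were taken from the 13 arrays of the series. Those at 120, 240 and 480 min formed the late group (n = 3) and those at 20, 40 and 60 min the early group (n = 3). MCF10A is a spontaneously immortalized human mammary epithelial line, and the labels name no clone, passage or separate culture. All cells had been grown with EGF and with a mixture of insulin, cholera toxin, hydrocortisone and horse serum, which the labels call serum, and all were deprived of serum for 24 h before stimulation. By their labels, the EGF arrays differ in minutes of EGF alone; its dose at stimulation is given only through the growth medium. The other 7 arrays are 1 of unstimulated cells and 6 of cells given serum at the same times, and they are used here only as a reference.

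EGF binds its receptor EGFR, a tyrosine kinase, and signals through RAS and the ERK kinases and through PI3 kinase and AKT. A first wave of immediate early genes, among them the transcription factors FOS and EGR1, is switched on from proteins already in the cell. Later genes include phosphatases and adaptors that damp the pathway, and further ligands of the receptor. The comparison asks which transcripts separate the first hour from the hours after it.

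Each time was measured on 1 array, so the spread within a group holds the course of time as well as the error of the assay, and p-values measure only that spread. Levels are log2(signal + 6) of the deposited signals after quantile normalization, and a difference is the late mean minus the early mean on that scale. After 1 probe set had been kept per gene, 7707 genes had a mean level of at least 4.69, a signal of about 19.8, and were tested. The median difference over all of them was 0.02. The arrays had been scaled alike, with trimmed mean signals of 150.04 to 150.05. The share of probe sets under a signal of 20 was 37.3% to 38.3% on the early EGF arrays and 37.3% to 40% on the late ones. The ratio of the 3' to the 5' actin probe set, a sign of RNA quality, was 1.31 to 1.68 early and 1.4 to 1.5 late. The median level as deposited was 5.51 to 5.52 early and 5.44 to 5.5 late, so it was lower on each late array, and its part in the results was not tested. Of 9 fixed markers of basal mammary epithelium, 4 had a probe set with a single symbol here, and these 4 were above the filter (KRT5, KRT14, LAMB3 and EGFR). Of 6 luminal markers, 3 were above it (GATA3, KRT8 and KRT18). Of 16 measured markers of other cell types, 3 were above it (CD14, COL1A1 and ACTA2). The title of the first EGF array gives 20 min and its description 40 min; the title was used, and both times are early.

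Few genes separated late from early beyond the spread. Limma called 5 of 7707 genes at a Benjamini-Hochberg adjusted p under 0.05, which is 0.0649% of the genes tested. The transcription factor gene ZBTB16, the cytokine signalling inhibitor SOCS1, the MAP kinase phosphatase DUSP1 and the kinase SGK1 fell, and MICAL2 rose. At an unadjusted p under 0.05 there were 1038 genes. In bulk RNA, a smaller share of cells expressing a gene and less of its RNA per cell cannot be told apart.

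ZBTB16 encodes a zinc finger repressor, also known as PLZF, whose transcript is induced by glucocorticoids in many cells. Its level was 7.06, 7.08 and 6.91 at 20, 40 and 60 min and then 4.86, 4.46 and 3.79 at 120, 240 and 480 min, against 7.33 in unstimulated cells. The groups did not overlap, the early arrays lay near the unstimulated array, and the level at 480 min was the lowest. The transcript fell by 2.65 on the log2 scale as measured (SE 0.26, limma adjusted p = 0.0346). The late levels at 240 and 480 min lie under the 4.69 of the filter, so the gene passed the filter through its early arrays. The size of its fall depends on how low levels are treated. With levels under the filter set to it, an alternative added after the data were seen, the fall was 4.82-fold (limma adjusted p = 0.000473), an estimate and not a lower limit. That step gives 2 late arrays the same value, which reduces their spread by construction (SE 0.118). The smaller p-value is therefore no support for the call. The difference was -3.12 with no offset and -1.91 with an offset of 24.

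SOCS1 binds and inhibits JAK kinases downstream of cytokine receptors. Its level was 5.63, 5.78 and 5.65 on the early arrays and 4.12, 3.81 and 4.24 on the late ones, with 5.10 in unstimulated cells. The early arrays were all above the unstimulated array and the late arrays all below it. The transcript fell by 1.63 on the log2 scale as measured (SE 0.14, limma adjusted p = 0.0258). All 3 late levels lie under the filter, so SOCS1 too passed it through its early arrays. With these levels set to the filter, the fall was 2-fold (limma adjusted p = 0.0335), again an estimate. All 3 late arrays then hold the same value, so the late group has no spread by construction. That p-value is therefore no support for the call. The difference was -2.11 with no offset and -1.0 with an offset of 24.

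DUSP1 removes the activating phosphates from ERK, JNK and p38, and it is both an immediate early gene and a glucocorticoid target. Its level was 10.74, 10.87 and 10.55 early and 9.15, 9.25 and 9.10 late, against 10.20 unstimulated. Every early array was above the unstimulated level and every late array about 1 log2 unit below it. DUSP1 fell 2.93-fold, a difference of -1.55 (SE 0.13, limma adjusted p = 0.0258), and a second probe set of the gene gave -1.58.

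SGK1, a kinase activated through PI3 kinase, had levels of 9.37, 9.46 and 9.57 early and 8.37, 8.47 and 8.5 late, against 8.85 unstimulated. Both groups were tight, and the unstimulated array lay between them. SGK1 fell 2.03-fold (difference -1.02, SE 0.11, limma adjusted p = 0.0486).

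MICAL2, an enzyme that oxidizes actin and takes apart its filaments, was the 1 gene that rose. Its level was 7.92, 7.85 and 8.04 early, close to the 7.90 of unstimulated cells, and 8.92, 9.14 and 8.98 late. The late arrays formed a plateau from 120 min on. The rise was 2.11-fold (difference 1.08, SE 0.12, limma adjusted p = 0.0486), and a second probe set gave 0.96. With the mean of all its probe sets, dim ones included, the difference was 0.68 and the call was lost (limma adjusted p = 0.179).

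The number of calls turned on the fit. Without the 20, 40, 60 or 240 min array limma called 0 (with 674 to 1130 genes at an unadjusted p under 0.05), and without the 120 min array it called 11. Of these 11, 3 were among the 5 called in the main fit. Limma called 42 with the filter at the 60th percentile, 3 of them among the 5. It called 119 with a variance trend and robust variances, and these held all 5. It called 0 with no offset, with no filter, for a slope on log2 minutes or against a minimum of 1.5-fold (1009, 1079, 1081 and 64 genes at an unadjusted p under 0.05). When the spread was estimated from the serum arrays too, 20 genes passed, or 0.26% of those tested, 6 of them higher and 14 lower late. SGK1 was not among these 20 (adjusted p = 0.103), while the other 4 were. Of the 6 fits that left out 1 EGF array, SGK1 and MICAL2 were each called in 0.

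**Figure D1:**
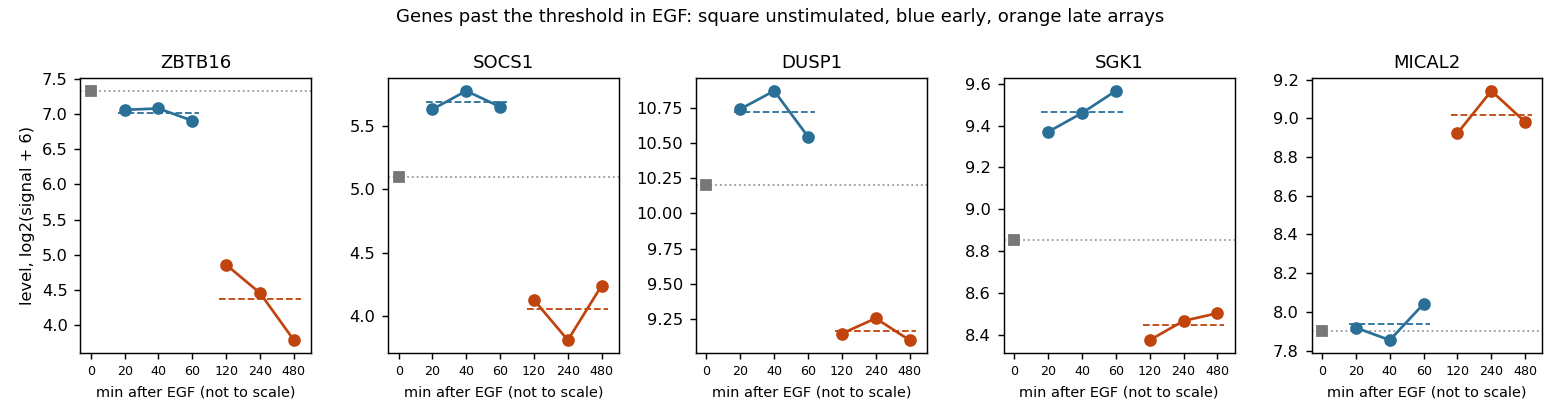
Level, as log2(signal + 6), of each of the 5 genes past the threshold on the single EGF arrays at 20 to 480 min, with the unstimulated array at 0; times are evenly spaced and not to scale. The 3 late arrays lie on 1 side of the 3 early arrays for each gene: above for MICAL2, and below for ZBTB16, SOCS1, DUSP1 and SGK1.

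Promoters of genes that the results turn on are shown as 300 bases around the annotated start site, from RefSeq on GRCh38.p14, written in the direction of transcription. They were searched on both strands for the cyclic AMP response element (CRE, TGACGTCA), the AP-1 site (TGANTCA), the E-box (CACGTG), the EGR site (GCGGGGGCG), the NF-kB site and the serum response factor site (CArG). The 5 shown were chosen because they hold a match: DUSP1, SOCS1 and MICAL2 were called, and EGR1 and CXCL2 were high in the first hour with large differences. The windows of SGK1, also called, and of FOS hold none of the 6 motifs and are not printed. For ZBTB16, also called, no promoter sequence was available, so it was not searched. Capitals mark the matches. The windows are chr5:172771146-172771445 for DUSP1 (minus strand), chr16:11256155-11256454 for SOCS1 (minus), chr11:12138140-12138439 for MICAL2 (plus), chr5:138465229-138465528 for EGR1 (plus) and chr4:74099146-74099445 for CXCL2 (minus).
DUSP1: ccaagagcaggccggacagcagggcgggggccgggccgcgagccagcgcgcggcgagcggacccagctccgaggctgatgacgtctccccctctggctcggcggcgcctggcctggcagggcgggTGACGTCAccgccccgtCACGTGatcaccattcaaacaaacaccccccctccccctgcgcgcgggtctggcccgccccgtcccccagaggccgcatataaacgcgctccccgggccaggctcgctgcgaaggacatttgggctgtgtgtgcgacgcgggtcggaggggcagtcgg
SOCS1: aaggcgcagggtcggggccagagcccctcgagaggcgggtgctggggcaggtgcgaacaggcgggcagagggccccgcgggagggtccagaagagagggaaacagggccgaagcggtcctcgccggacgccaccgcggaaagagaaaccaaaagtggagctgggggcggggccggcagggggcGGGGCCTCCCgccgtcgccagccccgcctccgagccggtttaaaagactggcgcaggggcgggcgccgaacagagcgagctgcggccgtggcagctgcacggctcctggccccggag
MICAL2: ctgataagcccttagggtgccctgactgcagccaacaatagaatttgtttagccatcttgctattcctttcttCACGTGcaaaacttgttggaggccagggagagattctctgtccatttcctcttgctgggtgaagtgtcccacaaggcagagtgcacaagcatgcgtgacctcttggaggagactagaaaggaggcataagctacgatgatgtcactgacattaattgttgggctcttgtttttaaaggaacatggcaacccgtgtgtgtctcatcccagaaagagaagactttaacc
EGR1: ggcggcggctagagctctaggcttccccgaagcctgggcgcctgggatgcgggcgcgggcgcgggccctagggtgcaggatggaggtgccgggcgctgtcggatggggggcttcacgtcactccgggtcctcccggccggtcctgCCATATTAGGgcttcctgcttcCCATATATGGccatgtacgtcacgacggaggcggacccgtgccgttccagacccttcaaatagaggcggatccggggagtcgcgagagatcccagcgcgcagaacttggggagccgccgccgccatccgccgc
CXCL2: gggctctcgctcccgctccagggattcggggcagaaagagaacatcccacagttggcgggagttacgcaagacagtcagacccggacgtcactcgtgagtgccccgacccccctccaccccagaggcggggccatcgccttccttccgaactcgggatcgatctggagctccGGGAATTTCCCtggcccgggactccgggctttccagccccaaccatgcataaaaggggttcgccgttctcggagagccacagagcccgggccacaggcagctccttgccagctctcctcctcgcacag

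DUSP1 holds a CRE at -125 and an E-box at -108 from the start site. EGR1 holds CArG matches at -105 and -83. SOCS1 has an NF-kB match at -67, CXCL2 has overlapping ones at -78 and -77, and MICAL2 has an E-box at -177. The MICAL2 window lies inside the gene, whose annotated span starts at chr11:12110590. Its -177 is thus counted from an internal start site. A match is only a description of these letters. Of the 6439 tested genes with a promoter sequence, 3.46% held a CRE, 4.58% an AP-1 site, 10.6% an E-box, 8.63% an EGR site, 13.4% an NF-kB site and 1.26% a CArG. Over all 27305 promoters these shares were 1.98%, 7.76%, 7.43%, 5.02%, 10.8% and 1.29%. Among genes at least 2-fold apart without overlap, 20 of those higher late had a promoter sequence, of which 0, 1, 3, 0, 2 and 1 held the motifs in the same order. Of the 27 lower late with a sequence, 1, 1, 3, 2, 3 and 1 held them. These small counts were not tested against the shares over all genes.

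Beyond the calls, many genes had late and early arrays that did not overlap. All 3 late arrays were above all 3 early ones for 824 genes (10.7%) and below them for 746 (9.68%). With a difference of at least 2-fold as well, 29 genes were higher late (0.376%) and 34 lower late (0.441%), with median sizes of 1.15 and 1.13. Of these 63 genes, 5 passed the limma threshold, so the others are given as values. The difference in serum had the same sign for 47 of the 63 and the opposite sign for 16. The share of like signs over all genes tested was not taken, so these counts are description only.

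The genes higher late differed in when they peaked: 10 at 120 min, 7 at 240 min and 12 at 480 min. Against the 1 unstimulated array, 14 of the 29 were at least 2-fold above it late, while 4 were at least 2-fold below it early and 11 stayed within 2-fold in both groups. Of the 34 genes lower late, 10 peaked at 20 min, 19 at 40 min and 5 at 60 min. Early means were at least 2-fold above the unstimulated level for 7 of these 34, and late means were at least 2-fold below it for 18. Among these 34, late means at least 2-fold under the unstimulated level were thus more common than early means at least 2-fold above it. In 9 genes both means stayed within 2-fold of it. The rule of no overlap leaves out genes that rose early and were still high at 120 min, such as EGR3 and CCN2. It also leaves out ELF3, whose late mean was at least 2-fold below the unstimulated level. The counts rest on 1 unstimulated array and were not taken over all genes tested. FOS was the 1 gene of the 34 whose late mean was still at least 2-fold above the unstimulated level.

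**Figure D2:**
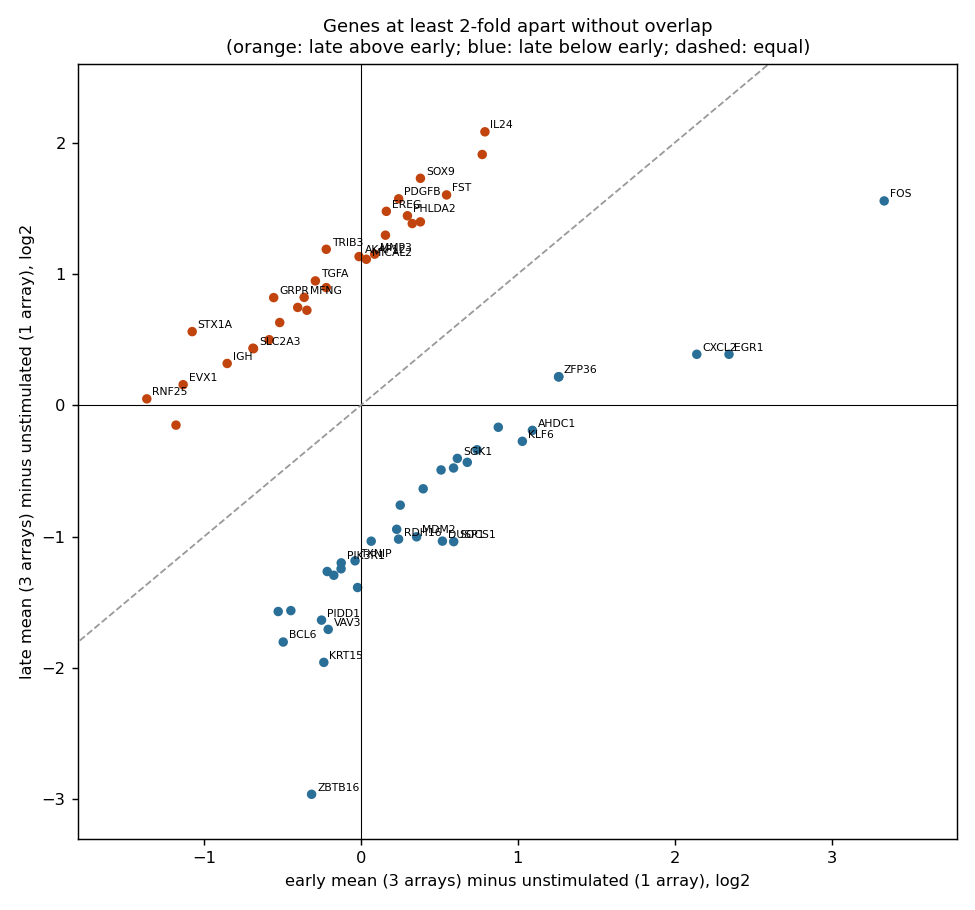
Early mean (horizontal) and late mean (vertical) of the EGF arrays minus the 1 unstimulated array, in log2 units, for the 29 genes higher late and the 34 genes lower late without overlap and by at least 2-fold; labelled points are genes named in the text. FOS, EGR1 and CXCL2 lie at the right, with early means over 2 above the unstimulated level, and ZBTB16 lies at the bottom, at -0.31 early and -2.96 late.

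**Figure D3:**
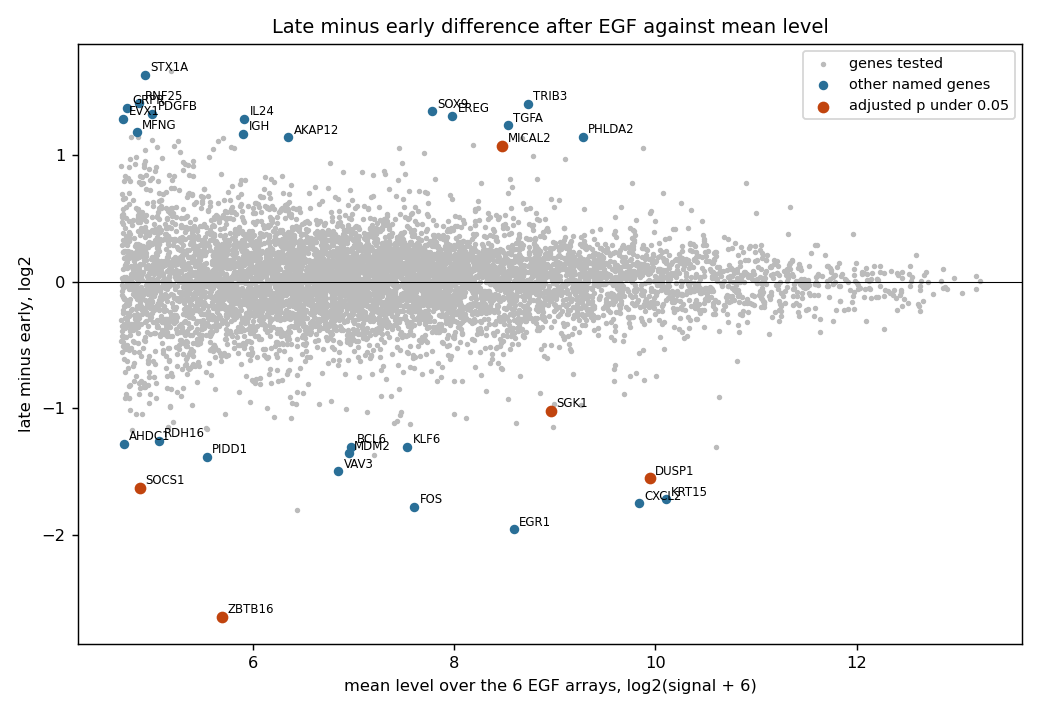
Late minus early difference (vertical, log2) against the mean level over the 6 EGF arrays (horizontal, log2(signal + 6)) for the 7707 genes tested. The 5 genes past the threshold are marked, with ZBTB16 lowest at -2.65, and the spread of the differences is widest at the dim end.

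In the gene lists that follow, a member is called separated upward or downward where its 3 late arrays lay all above or all below its 3 early ones, which holds for 10.7% and 9.68% of all genes tested. Members named for that alone, without belonging to the naming rule, were chosen after their values were seen. Among the immediate early transcription factors, 12 of the 15 tested had a negative difference, none passed the threshold, and the late arrays were below the early ones for 3, EGR1, FOS and KLF6 (all genes, 9.68%). The median difference of the list was -0.51, against 0.02 over all genes. Its median against the unstimulated array was 0.67, 1.35 and 1.42 at 20, 40 and 60 min, then 1.02 at 120 min and 0.06 and 0.14 at 240 and 480 min. The first wave was thus highest at 40 to 60 min and near the unstimulated level by 240 min. FOS, which forms the AP-1 dimer with JUN, was at 7.95, 8.99 and 8.53 early and 7.04, 6.48 and 6.62 late, against 5.16 unstimulated (difference -1.78, limma adjusted p = 0.127). EGR1, a zinc finger factor, was at 8.92, 9.95 and 9.84 early and 8.46, 7.28 and 7.10 late, against 7.22 unstimulated (difference -1.96, limma adjusted p = 0.171). FOS thus stayed above its unstimulated level to 480 min and EGR1 did not. The Krueppel-like factor KLF6 was at 8.15, 8.52 and 7.87 early and 6.93, 6.75 and 6.96 late, against 7.15 unstimulated (limma adjusted p = 0.0837). EGR3, a relative of EGR1, was at 6.90, 7.59 and 7.54 early, still at 7.33 at 120 min, and at 4.63 and 4.65 after that, so that its groups overlapped (limma adjusted p = 0.336). The EGR3 levels at 240 and 480 min were under the filter. MYC, the growth regulator, had its highest level at 120 min, 12.01, and lay between 11.12 and 11.49 at the other 5 times. Of 9 later AP-1 and bZIP factors 1 was separated, the bZIP repressor NFIL3 (difference -0.91, limma adjusted p = 0.132), and CEBPD had a difference of -0.55 (median of the 9, 0.09).

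The genes that damp the pathway were mixed. Of 8 MAP kinase phosphatases, DUSP1 fell, and 3 were separated upward (DUSP4, DUSP6 and DUSP7) and 2 downward (DUSP1 and DUSP10), with a list median of 0.08 whose sign differed in 4 of 17 alternatives. DUSP6, the cytoplasmic phosphatase of ERK, was at 9.16, 9.24 and 9.61 early and 10.12, 9.74 and 9.70 late (difference 0.51, limma adjusted p = 0.307), against 8.53 unstimulated. All 6 arrays were above the unstimulated level. Of 15 feedback inhibitors of receptors and RAS, SOCS1 fell, 5 were separated upward (SPRY4, SPRED2, SOCS2, PHLDA1 and PTPRE) and SOCS1 alone downward (all genes, 10.7% and 9.68%), and the list median was 0.14. The ERK phosphatase DUSP7 was at 7.44, 7.32 and 7.44 early and 8.16, 8.24 and 8.24 late (difference 0.81, SE 0.11, limma adjusted p = 0.0724). SPRED2, an inhibitor of RAS signalling to RAF, had a like pattern, from 6.87, 6.79 and 6.99 to 7.73, 7.73 and 7.75 (difference 0.85, SE 0.11, limma adjusted p = 0.0724). Both had tight late plateaus, while SPRY4 and PHLDA1 peaked at 120 min, at 7.94 and 9.64.

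Of 7 EGF family ligands and receptors tested, 3 ligands were separated upward (TGFA, EREG and NRG1) and 2 receptors downward (EGFR and ERBB3), the list median was 0.58, and none passed the threshold. The list median against the unstimulated array was -0.02, 0.14 and 0.02 at the early times and 0.97, 0.96 and 0.71 at the late ones. TGFA, a ligand of EGFR, was at 7.84, 7.84 and 8.05 early and 9.18, 9.36 and 8.91 late, against 8.20 unstimulated (difference 1.24, SE 0.15, limma adjusted p = 0.0645). Its 2 other probe sets above the filter gave 0.61 and 1.11. EREG, epiregulin, was at 7.37, 7.47 and 7.12 early and 8.94, 8.90 and 8.07 late (difference 1.31, SE 0.25, limma adjusted p = 0.135). With the spread shared with the serum arrays, both passed, at adjusted p = 0.0151 and 0.0486. HBEGF, a heparin-binding ligand, was at 8.59, 9.18 and 10.25 early and 11.23, 10.14 and 9.83 late, so its groups overlapped (difference 1.06, limma adjusted p = 0.398). The receptor EGFR was at 12.38, 12.51 and 12.48 early and 12.14, 12.02 and 12.09 late (difference -0.37, limma adjusted p = 0.238). Of 4 other probe sets of EGFR above the filter, 3 gave -0.41 to -0.49 and 1 gave 0.33. ETS factors, transcription factors of which several are ERK targets, had ETV5 and ERF separated upward and ETS2 and EHF downward among 11, with a median of 0.21. ETV1 and ELF3 had differences of 0.90 and -1.16, with overlapping groups. Both differences include levels under the filter: 4.32 and 4.10 at 40 and 60 min for ETV1, and 4.39 and 4.50 at 240 and 480 min for ELF3.

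Glucocorticoid targets held 3 of the 4 genes that fell, ZBTB16, DUSP1 and SGK1. Of 12 tested, 6 had late arrays below the early ones, against 9.68% of all genes, and none had them above. The list, like all lists here, was written with earlier results of these data known, so this share is description only. Members with overlapping groups had differences from -0.55 (CEBPD) to 0.11 (CDKN1C), with MT2A at 0.00 and MT1X at 0.06. The list median was -0.65. Against the unstimulated array its median was -0.01, -0.06 and -0.13 at the early times and -0.36, -0.76 and -0.74 at the late ones. The remaining separated members were TSC22D3, FKBP5 and NFKBIA, the inhibitor of NF-kB (difference -0.74, limma adjusted p = 0.15). The leucine zipper gene TSC22D3 was at 7.28, 6.97 and 6.48 early and 6.2, 5.88 and 5.76 late (difference -0.97, limma adjusted p = 0.19). FKBP5, a chaperone partner of the glucocorticoid receptor, was at 7.88, 8.01 and 8.08 early and 7.39, 7.29 and 6.19 late (difference -1.03, limma adjusted p = 0.25). TSC22D3 was lower at each later time, and FKBP5 was lowest at 480 min.

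**Figure D4:**
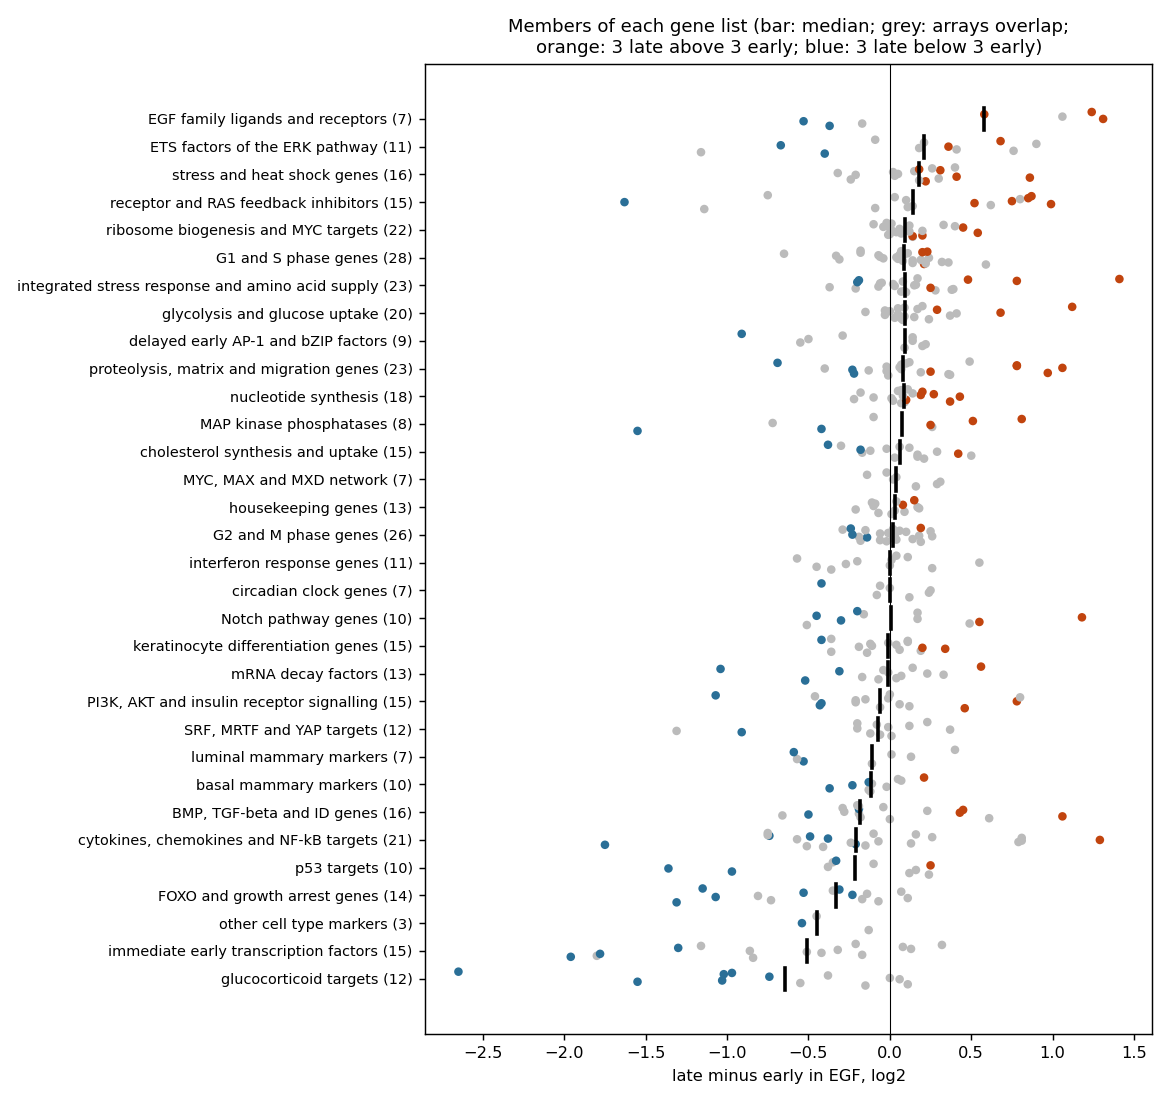
Late minus early difference (horizontal, log2) of each tested gene in the 32 gene lists, with the median of each list. The glucocorticoid targets have the lowest median of the lists, at -0.65, and the EGF family ligands and receptors the highest, at 0.58.

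FOXO and growth arrest genes had 12 of 14 negative differences, with 6 separated downward (TXNIP, BCL6, CITED2, PINK1, TOB1 and FOXO3), none upward (all genes, 9.68% and 10.7%, with 3574 of 7707 negative), none past the threshold and a median of -0.33. TXNIP, an inhibitor of glucose uptake and thioredoxin, was at 9.83, 9.51 and 9.32 early and 8.73, 8.39 and 8.10 late, against 9.59 unstimulated (difference -1.15, limma adjusted p = 0.132). The transcriptional repressor BCL6 was at 8.22, 7.73 and 6.95 early and 6.43, 5.80 and 6.74 late (difference -1.31, limma adjusted p = 0.234). Both were lower at each later time within the first hour already. In the PI3 kinase and insulin receptor list, 2 of 15 were separated upward (IRS1 and AKT1) and 3 downward (PIK3R1, IGF1R and INPP5D), with a median of -0.06. The regulatory subunit PIK3R1 had levels of 8.59, 8.90 and 8.48 early and 7.90, 7.28 and 7.57 late (difference -1.07, limma adjusted p = 0.132). The catalytic subunit PIK3CD had a difference of 0.80 with overlapping groups, and a second probe set above the filter gave 0.20. Of 10 p53 targets, 1 was separated upward (PMAIP1) and 3 downward (MDM2, GADD45A and ZMAT3), with a median of -0.22. MDM2, the ubiquitin ligase of p53, was at 7.84, 7.60 and 7.45 early and 6.51, 6.25 and 6.06 late, against 7.28 unstimulated (difference -1.36, SE 0.16, limma adjusted p = 0.0645). With the shared spread it passed, at adjusted p = 0.013, and a second probe set gave -1.0. The damage response gene GADD45A was at 9.35 to 9.56 early and 8.14 to 8.69 late, against 8.12 unstimulated. PIDD1, a death domain protein induced by p53, was at 6.17, 6.40 and 6.13 early and 4.37, 4.53 and 5.64 late (difference -1.38, limma adjusted p = 0.194). Its levels at 120 and 240 min were under the filter, and the level at 480 min was above it.

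Of 21 cytokines, chemokines and NF-kB targets, 1 was separated upward (IL24) and 5 downward (CXCL2, CXCL3, NFKBIA, NFKB2 and IRF1), with a median of -0.21 and no call (all genes, 10.7% upward and 9.68% downward). The neutrophil chemokine CXCL2 was at 10.16, 10.98 and 11.01 early and 9.34, 8.78 and 8.77 late, against 8.58 unstimulated (difference -1.75, SE 0.27, limma adjusted p = 0.127). It was near its unstimulated level at the last 2 times, and it passed with the shared spread, at adjusted p = 0.0302. The cytokine IL24 ran the other way, from 5.01, 4.99 and 5.79 to 6.69, 6.60 and 6.38, against 4.48 unstimulated (difference 1.29, limma adjusted p = 0.132). Of 12 SRF, MRTF and YAP targets (median -0.07) 1 was separated, downward: the matricellular CCN1, at 10.60 to 11.40 early and 9.87 to 10.54 late. Its relative CCN2 was at 10.55, 11.57 and 11.65 early, 11.28 at 120 min and 9.63 and 8.93 after, against 8.34 unstimulated. Of 13 mRNA decay factors 1 was separated upward and 3 downward (ZFP36, TOB1 and AUH; median -0.01). ZFP36, which destabilizes cytokine transcripts, was at 8.04, 8.87 and 8.64 early and 7.84, 7.29 and 7.28 late. Its relative ZFP36L2 had a difference of 0.56, but 2 other probe sets above the filter gave 0.13 and 0.30.

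Genes of proteolysis, matrix and migration had 5 of 23 separated upward (PLAU, PLAUR, MMP3, ITGA2 and ITGA5) and 3 downward (TIMP3, ITGB4 and FN1), with a median of 0.08 (all genes, 10.7% and 9.68%). The matrix protease MMP3 was at 4.60, 4.54 and 4.39 early and 5.35, 5.63 and 5.73 late (difference 1.06, SE 0.14, limma adjusted p = 0.0724), with its early levels under the filter. The collagen receptor subunit ITGA2 was at 8.59, 8.42 and 8.82 early and 9.27, 9.64 and 9.84 late (difference 0.97, limma adjusted p = 0.135). ITGA2 and MMP3 were each highest at 480 min. PLAU, the urokinase protease, was at 10.48, 10.3 and 10.74 early and 11.16, 11.42 and 11.28 late (difference 0.78, limma adjusted p = 0.14). Its receptor PLAUR was at 7.56, 7.86 and 8.19 early and 8.9, 8.57 and 8.49 late (difference 0.78, limma adjusted p = 0.2). PLAU was thus highest at 240 min and PLAUR at 120 min. In the list of BMP, TGF-beta and ID genes, 3 of 16 were separated upward (FST, SMAD7 and SKI) and 2 downward (ID3 and TGFB1), with a median of -0.18. The activin antagonist FST was at 6.89, 6.87 and 7.0 early and 7.55, 8.15 and 8.23 late (difference 1.06, limma adjusted p = 0.132), and ID1 had a difference of -0.66. Of 10 Notch pathway genes 2 were separated upward, the ligand JAG1 (difference 0.55) and the glycosyltransferase MFNG (1.18), and 3 downward (NOTCH1, JAG2 and RBPJ), with a median of 0.00. All early levels of MFNG were under the filter, so it passed the filter through its late arrays.

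Several metabolic lists had small positive medians and no member past the threshold. Of 23 genes of the integrated stress response and amino acid supply, 4 were separated upward (TRIB3, SLC7A11, STC2 and GARS1) and 2 downward, the transporter partners SLC7A5 and SLC3A2, with a median of 0.09. The pseudokinase TRIB3 was at 7.90, 7.81 and 8.37 early and 9.0, 9.49 and 9.81 late, against 8.25 unstimulated (difference 1.41, SE 0.24, limma adjusted p = 0.132), and it passed with the shared spread, at adjusted p = 0.0199. SLC7A11, the cystine transporter, was at 9.28 to 9.52 early and 9.87 to 10.47 late (difference 0.78), and 2 other probe sets above the filter gave 0.30 and 0.86. Separated upward were 5 of 16 stress and heat shock genes (GCLM, HERPUD1, HSPH1, BAG3 and NQO1; median 0.18), 6 of 18 genes of nucleotide synthesis (0.08), 4 of 22 of ribosome biogenesis (NIP7, PUS7, GAR1 and FBL; 0.09) and 3 of 20 of glycolysis and glucose uptake (SLC2A3, PFKFB3 and PGAM1; 0.09), each with none downward. The share of all genes separated upward was 10.7%. Examples are GCLM, an enzyme of glutathione synthesis (difference 0.86), MTHFD2 of mitochondrial folate metabolism (0.43), the pseudouridine synthase PUS7 (0.45) and the glucose transporter SLC2A3 (1.12). Further examples of smaller size were CTPS1, the CTP synthase, at 0.37, and NIP7, a ribosome assembly factor, at 0.54. Of 15 cholesterol genes 1 was separated upward (INSIG1) and 2 downward (SREBF2 and MVK), with a median of 0.06. HMGCS1 had a difference of 0.50, but a second probe set above the filter gave 0.08.

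Of the cell cycle lists, G2 and M phase genes had the 0.02 median of all genes, and the G1 and S phase median was small and positive. Of 28 G1 and S phase genes 3 were separated upward, the share of all genes (10.7%), and none downward, with a median of 0.09. Of 26 G2 and M phase genes 1 was separated upward (UBE2C) and 3 downward (CDC25B, TTK and CENPF), with a median of 0.02. CCND1, the G1 cyclin, was at 7.49, 7.13 and 7.32 early and 7.48, 8.11 and 8.14 late. The MYC and MAX network (7 genes, median 0.04) and the interferon response (11 genes, 0.00) had no separated member. Among 7 circadian genes PER2 alone was separated, downward, and the median was 0.00. Keratinocyte differentiation genes had 2 of 15 separated upward (KRT10 and PI3) and 1 downward, the cornified envelope gene SPRR3, with a median of -0.01. Housekeeping genes had 2 of 13 upward (PPIA and YWHAZ; 0.03). Of basal markers 1 of 10 was separated upward (SFN) and 3 downward (EGFR, ITGB4 and KRT5; median -0.11). Of 7 luminal markers 2 were separated, MUC1 (difference -0.59) and ERBB3, both downward (median -0.11). The 3 markers of other cells had differences of -0.13 to -0.54, and their part in the results was not tested. The basal keratin KRT15 was at 10.99, 11.15 and 10.74 early, 10.37 at 120 min and 8.71 and 8.64 after that, against 11.20 unstimulated (difference -1.72, limma adjusted p = 0.203). It was low only at the last 2 times.

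Of the genes named for the size of their difference alone, SOX9, a transcription factor of epithelial progenitors, was higher at each later time, at 6.93, 7.01 and 7.35 early and 8.16, 8.46 and 8.73 late, against 6.72 unstimulated (difference 1.35, SE 0.18, limma adjusted p = 0.0837). A second probe set gave 1.06. PHLDA2, a growth-restraining imprinted gene, was at 8.38, 8.64 and 9.10 early and 9.67, 9.91 and 9.98 late (difference 1.15), but a second probe set above the filter gave 0.07. The scaffold protein gene AKAP12 went from 5.15, 5.94 and 6.25 to 6.78, 7.04 and 6.95. VAV3 was at 8.06, 7.61 and 7.12 early and 6.15, 5.91 and 6.24 late, against 7.81 unstimulated (difference -1.50, limma adjusted p = 0.131). The dim genes STX1A, RNF25, GRPR, PDGFB and EVX1 had differences of 1.29 to 1.64 with early means of 4.06 to 4.33, under the filter. IGH had a difference of 1.17, and the dim genes AHDC1 and RDH16 had -1.28 and -1.26, with late means of 4.07 and 4.43, under the filter.

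Between the first and the last EGF array, each a single library with no replicate, 128 genes were at least 2-fold higher at 480 min than at 20 min (1.66%) and 138 at least 2-fold lower (1.79%). ZBTB16 went from 7.06 to 3.79, KRT15 from 10.99 to 8.64 and SOX9 from 6.93 to 8.73. CCN2 shows how much such a pair can miss: it was at 10.55 at 20 min and 8.93 at 480 min, with 11.65 between them. No error can be given for these pairs.

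The late minus early difference was also compared between EGF and serum by the stimulus by phase interaction, fitted with time as a block on the 12 stimulated arrays. It passed for 2 of 7707 genes (0.026%), ZBTB16 and SOCS1, and 877 genes had an unadjusted p under 0.05. In serum ZBTB16 was at 6.98, 6.98 and 7.34 early and 7.57, 7.25 and 6.89 late, so its groups overlapped, a difference of 0.14. The interaction was -2.78 (SE 0.21, limma adjusted p = 0.0289). SOCS1 in serum was at 4.80, 4.34 and 4.34 early and 5.73, 4.95 and 5.52 late, a difference of 0.91 in the other direction from EGF. Its interaction was -2.54 (SE 0.22, limma adjusted p = 0.038). Without both 60 min arrays 1 of the 2 passed, ZBTB16, and without both arrays of any other time limma called 0 (633 to 881 genes at an unadjusted p under 0.05). With levels under the filter set to it, the SOCS1 interaction was -1.67 and no longer past the threshold (limma adjusted p = 0.121), while ZBTB16 passed (-2.41, adjusted p = 0.0489). For DUSP1, SGK1 and MICAL2 the serum differences had the sign of those in EGF, at -0.85, -1.27 and 0.77, and the interaction was not past the threshold.

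**Figure D5:**
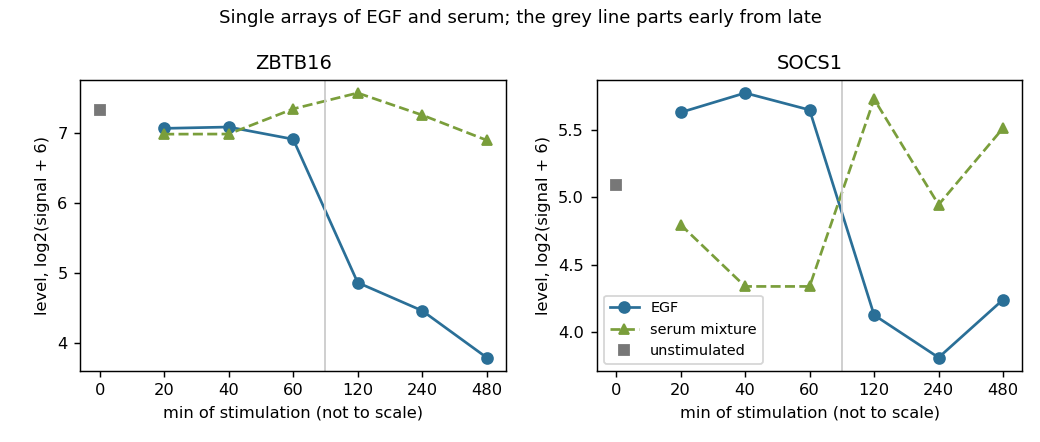
Level, as log2(signal + 6), of ZBTB16 and SOCS1 on the single arrays of EGF (circles) and serum (triangles) at 20 to 480 min and on the unstimulated array (square); times are evenly spaced and not to scale. From 120 min on, both genes lie lower in EGF than in serum, with ZBTB16 at 3.79 and 6.89 at 480 min.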

How the data were processed

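RNA from MCF10A cells was measured on 13 Affymetrix arrays of 22277 probe sets. The authors deposited 1 linear-scale intensity for every probe set on each array, made with MAS5 per the submitters' processing notes, with its version not given in the sources used here. From it, log2(signal + 6) was taken and the 13 arrays were quantile normalized. The 62 control probe sets were left out. Of 22215 others, 19064 had 1 gene symbol in the platform annotation, 1043 several and 2108 none. The probe set with the highest mean over the 6 EGF arrays stood for each of 11963 genes, and genes at or above the 40th percentile of probe set means (4.69) were tested. Limma 3.58.1 in R 4.3.3 (lmFit, eBayes) compared late with early EGF arrays, with 4 residual degrees of freedom and a threshold of 0.05 after Benjamini-Hochberg adjustment. It was also fitted with the serum arrays sharing the spread (8 degrees of freedom) and for the interaction with stimulus, time as a block (4 degrees of freedom). The code was tested on simulated data. The number of arrays limits the precision.

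The genes named are the 15 largest rises and 15 largest falls among genes past the threshold, filled with the largest separated differences at an unadjusted p under 0.01, then up to 4 called or 2 largest members of each of 32 gene lists, and FOS, EGR1, DUSP6, MYC, HBEGF, AREG (not among the genes tested), EREG and TGFA. Genes named outside this rule are said to have been chosen after their values were seen. The comparison, the members and the lists were chosen with earlier results of these data known. Alternatives covered the offset, normalization, filter, choice of probe set, model, each EGF array left out and, added after the data were seen, levels under the filter set to it. Promoter sequences were matched by symbol for 61 of 82 named genes.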

Additional observations from a re-analysis of the deposited data

Results flagged for a closer look

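Of the 2 results singled out here, both are differences between EGF and serum in the late minus early change, tested by the interaction in limma. ZBTB16 differed by -2.78 (SE 0.21, limma adjusted p = 0.0289), with all 3 late EGF arrays below all 3 early ones and overlapping groups in serum. SOCS1 differed by -2.54 (SE 0.22, limma adjusted p = 0.038), with a difference of -1.63 in EGF and 0.91 in serum, and its call was lost when levels under the filter were set to it (-1.67, limma adjusted p = 0.121). Groups of 3 arrays were too small to test for an array far from the others.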

How the results depend on the processing

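Against 5 genes past the threshold in EGF, limma called 15 with an offset of 24, 2 on the values as deposited, 3 with quantile normalization over the EGF arrays only, 42 with a filter at the 60th percentile, 3 with probe set and filter chosen on all 13 arrays, 5 when probe sets were averaged within genes (3 of them shared), 7 with levels under the filter set to it, 20 with the spread shared with serum and 119 with a variance trend and robust variances. It called 0 with no offset (1009 genes at an unadjusted p under 0.05), 0 with no filter (1079), 0 for a slope on log2 minutes (1081) and 0 against a minimum of 1.5-fold (64). Leaving out 1 EGF array gave 0 to 11, with SGK1 and MICAL2 each called in 0 of these 6 fits. The difference ranged from -3.12 to -1.91 for ZBTB16, -2.11 to -1.0 for SOCS1, -1.64 to -1.48 for DUSP1, -1.07 to -0.97 for SGK1 and 0.68 to 1.13 for MICAL2. The interaction, past the threshold for 2 genes, gave 0 with no offset (836 unadjusted), 6 with an offset of 24, 1 as deposited, 0 with no filter (981), 5 without time as a block, 1 with levels under the filter set to it (chosen after seeing the data), and 0 to 1 with both arrays of a time left out. Between 480 and 20 min, 44 genes were higher and 59 lower by 2-fold with an offset of 24, and 598 and 615 with no filter. Of 82 named genes, 3 changed sign: CRY1 at -0.049 without the 240 min array, TGM1 at 0.112 without the 480 min array, and MYC at 0.005, 0.138 and 0.119 without the 20, 240 or 480 min array. The causes were not tested. The medians of the immediate early, glucocorticoid, FOXO, p53 and cytokine lists kept their sign in all 17 alternatives, and that of the EGF family was at 0 in 1 of them. No paired analysis was possible because late and early EGF arrays share no time, and their replicate numbers only follow the order of time. EGF and serum arrays were paired by time in the interaction. Levels near the filter, a signal of about 19.8, are the least certain.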

Other observations

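Of 1599 probe sets above the filter that have no single gene symbol, limma called 1 at an adjusted p under 0.05, and 242 had an unadjusted p under 0.05.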
